A study of Rattus norvegicus with 12 samples.

Results

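Kruppel-like factors (KLFs) are DNA-binding proteins with closely spaced zinc fingers at their carboxy-terminal end. The fingers recognise GC-rich and CACCC sequences, and the family members differ in the rest of the protein, which recruits coactivators or corepressors. Several KLF genes respond within minutes to hours to growth factors, hormones or flow in other cell types, which places them beside the FOS and EGR genes among early response regulators. Here 9 members, Klf2, Klf3, Klf4, Klf5, Klf6, Klf9, Klf10, Klf13 and Klf15, were followed in pituitary cells after a short exposure to gonadotropin-releasing hormone (GnRH). They were found through all probe sets, groups of short oligonucleotides that together report on 1 transcript, whose single gene symbol in the platform annotation was one of these names. This gave 24 of the 31099 probe sets on the array.

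The cells were primary cultures enriched in gonadotropes, which secrete the gonadotropins, luteinizing hormone (LH) among them, and respond to GnRH through its receptor. The donors were Sprague-Dawley rats, adult females that had been ovariectomized 2 weeks earlier, and an experiment pooled 13 to 15 anterior pituitaries. Large cells were collected by sedimentation, and 40 to 60% of them stained for LH, so other cell types remained in each culture. Every culture, the controls included, was kept in medium with estradiol and steroid-stripped serum. On culture day 3 the wells received 10 nM GnRH or an equal volume of vehicle medium, and they were lysed after 40 min. The 12 Affymetrix rat expression arrays held 6 GnRH and 6 vehicle samples. They came from 3 preparations, the enrichment sets (I, II and III), each with 2 samples per agent. Nothing in the labels says whether wells of 1 preparation were separate pools of animals, so the p-values measure the spread between these samples, which may be technical. In such bulk RNA, fewer cells of a type and less RNA per cell cannot be told apart.

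All 6 gonadotrope markers checked passed the intensity filter, which acts on the mean over the arrays. Their summed signal ran from 32142 to 473414 in vehicle samples and from 71098 to 494334 in GnRH samples. Much of it was Cga, from 17041 to 348827 in vehicle samples. The receptor gene Gnrhr read 70.4 to 390 in vehicle and 40.3 to 469 in GnRH samples, and Nr5a1 fell to 26.2 in a GnRH sample. Of the 6, 4 were higher and 0 passed the test. Foxl2 and Nr5a1, which encode transcription factors of the lineage, differed by -0.67 and -1.15, and the hormone subunit gene Cga by 0.89. The agent's effect was checked on Fosb, an early response gene outside the family. Its signal ran from 125 to 1073 in vehicle samples and from 1359 to 4776 in GnRH samples, and it was the 1 probe set of 18625 called by limma (0.00537%; log2 difference 2.29, adjusted p = 0.0411). With 1 array left out, 11 of the 12 fits called 0 probe sets. The arrays fell apart by the signal of bacterial spike-in RNA, which is added in fixed amounts. After scaling, it was between 2264 and 11705 on 5 arrays, the 4 of set I and vehicle 5 of set III, and between 53482 and 320024 on the other 7. Vehicle 3 of set II had the highest spike-in signal and a median Spearman correlation with the other arrays of 0.336, against 0.618 or more for each of the rest. Spike-in signal did not differ by agent beyond the spread (log2 difference 0.96, exact permutation test within sets p = 0.5, two-sided, n = 6 per group).

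The DNA before the annotated start of 3 member genes is shown because these windows could be read wholly outside the RefSeq gene. They set the member with the largest GnRH difference among tested probe sets, Klf6, beside Klf9 and Klf5, which had smaller ones. Each window holds 250 bases of build GRCr8, printed 5′ to 3′ on the gene's strand. Capitals mark every match, on either strand, to the cyclic AMP response element core TGACG, the GC box GGGCGG, the CACCC box and the CArG box. The CArG box is the recognition element of serum response factor.
Klf6, chr17:69458479-69458728, minus strand: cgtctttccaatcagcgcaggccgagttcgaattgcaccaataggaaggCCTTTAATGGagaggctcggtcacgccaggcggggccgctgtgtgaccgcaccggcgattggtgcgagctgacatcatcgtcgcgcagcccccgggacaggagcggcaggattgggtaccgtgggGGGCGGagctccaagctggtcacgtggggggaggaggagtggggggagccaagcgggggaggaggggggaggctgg
Klf9, chr1:230126396-230126645, plus strand: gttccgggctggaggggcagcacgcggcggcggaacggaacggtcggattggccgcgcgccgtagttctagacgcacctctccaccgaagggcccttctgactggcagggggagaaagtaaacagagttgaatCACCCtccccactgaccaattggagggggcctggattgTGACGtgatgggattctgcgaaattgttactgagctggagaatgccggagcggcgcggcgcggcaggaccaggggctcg
Klf5, chr15:82471831-82472080, plus strand: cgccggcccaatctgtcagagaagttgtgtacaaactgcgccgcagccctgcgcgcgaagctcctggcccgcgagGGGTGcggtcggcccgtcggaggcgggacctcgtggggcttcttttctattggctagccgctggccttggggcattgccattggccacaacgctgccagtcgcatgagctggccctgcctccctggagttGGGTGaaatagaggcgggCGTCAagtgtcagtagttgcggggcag
The Klf6 window held 1 CArG match, beginning 201 bases before the gene start, and 1 GC box match. A CArG match was present in 1.5% of the 33469 rat promoter windows of the same length, and a GC box match in 30.5%. The Klf9 window held 1 TGACG match, 79 bases before the start, and 1 CACCC match. It also held 1 match to TGANTCA, the AP-1 element bound by FOS and JUN proteins, which 6.34% of windows contain. The Klf5 window held 1 TGACG match, 27 bases before the start, and 2 CACCC matches. TGACG matches were present in 18.2% and CACCC matches in 49.2% of all windows. CCAAT matches numbered 4, 3 and 3 in Klf6, Klf9 and Klf5, against a share of 34% of windows with any. The windows were GC-rich, at 67.2%, 63.6% and 65.2% for Klf6, Klf9 and Klf5, with a median of 51.2% over all windows. The full response element TGACGTCA was in none of them. A match is a string of letters, and binding was not measured. RefSeq promoter entries were found for 6 of the 9 members, and the Klf3, Klf4 and Klf15 windows were not wholly outside the annotated gene.

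GnRH against vehicle. The comparison asked which KLF transcripts differed after 40 min of GnRH. Of the 24 member probe sets, 17 passed the filter on dim probe sets, with at least 1 for each of the 9 genes, and none of the 17 was called. By limma, 0 of 17 passed an adjusted p of 0.05, 0 of 17 had an unadjusted p under 0.05 (3.45% of all tested, 1.87% higher and 1.58% lower), and the lowest member p-values were 0.0725 unadjusted and 0.981 adjusted. Of the 17 log2 differences 9 were above 0, against 53.6% of all tested probe sets, and their median was 0.05 against 0.04. The vehicle and GnRH values overlapped for each of the 17, whereas 0.107% of tested probe sets had groups that did not overlap. The intervals are wide: for the brightest tested probe set of each gene, the 95% interval of the fold reached 4.58 upward for Klf6 and 0.364 downward for Klf13.

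**Figure D1:**
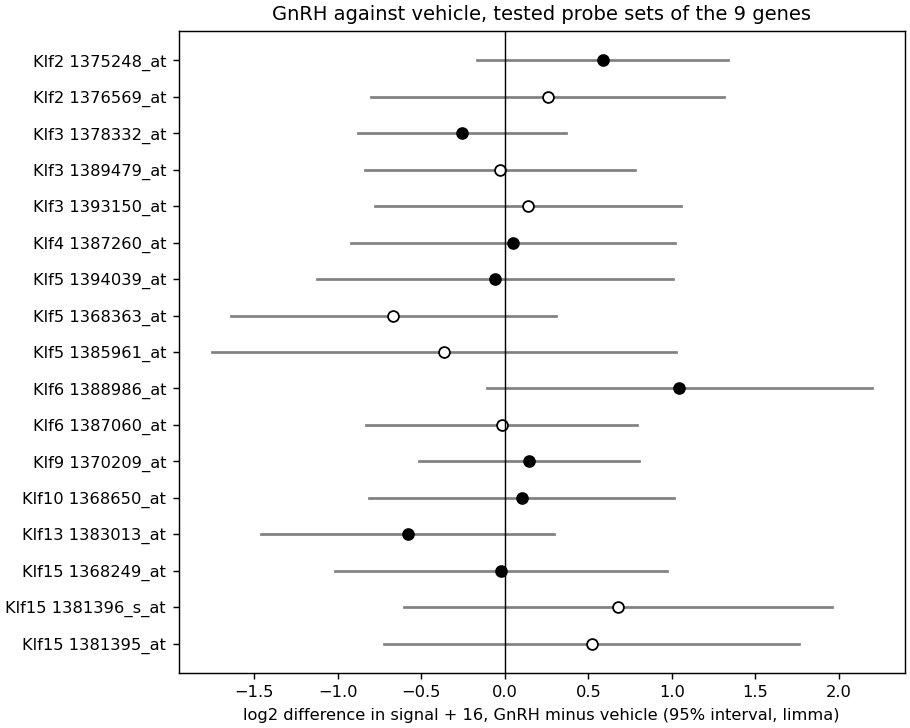
Difference in log2(signal + 16), GnRH minus vehicle, with its 95% interval from limma (n = 6 per group), for the 17 tested probe sets. Filled points are the brightest tested probe set of each gene, open points the others, and every interval includes 0.

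Klf6 had the largest difference among the tested probe sets (1388986_at). KLF6 is a widely expressed factor first described as an early response gene in injured liver cells and known as an activator of the cell cycle inhibitor gene Cdkn1a. It gave 1194 and 1221 in the vehicle samples of set I, against 2337 and 1846 in the GnRH samples. In set II the vehicle samples read 38.8 and 774 and the GnRH samples 1282 and 1193. Both GnRH samples lay above both vehicle samples in these sets. In set III the groups overlapped, with 1122 and 927 after vehicle and 730 and 1025 after GnRH. Over all arrays the fold was 2.06 (95% interval 0.929 to 4.58) and the log2 difference 1.04 ± 0.54 (SE, n = 6 per group; limma adjusted p = 0.981). By set, in order, the differences were 0.78, 2.59 and -0.23. The set II value leans on vehicle 3, whose reading of 38.8 is under the geometric mean of 183 that the background bacterial controls gave on that array. Without vehicle 3 the difference over all sets was 0.37. In set I fitted alone, the Klf6 fold was 1.71 (interval 1.14 to 2.57; limma unadjusted p = 0.0159, adjusted p = 0.997). That was the 1 of 17 member probe sets with an unadjusted p under 0.05 in set I, where 3.70% of all tested reached it and 0% were called after adjustment. In set II alone the Klf6 fold was 6.02 (interval 0.997 to 36.3; limma unadjusted p = 0.0503).

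The other tested Klf6 probe set did not repeat this. The second tested probe set (1387060_at), built on the RefSeq transcript, had a median of 562 in vehicle and 708 in GnRH samples, and a log2 difference of -0.02 ± 0.38 (SE). It was higher in set I (0.53), lower in set II (-0.61) and near 0 in set III (0.02). The third (1395557_at) was too dim to be tested and had a median of 76.4 in vehicle and 194 in GnRH samples. Its log2 difference was 0.96, with -0.16, 2.30 and 0.73 in the sets. It exceeded the 90th percentile of the background controls on 6 of 12 arrays. The 2 tested probe sets thus lay on the same side of 0 in set I and on opposite sides in set II.

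Klf10 encodes a repressor first found as a gene induced early by transforming growth factor beta, and its protein recruits the SIN3A corepressor. In set I it (1368650_at) read 1442 and 1482 after vehicle and 1929 and 1818 after GnRH. In set II it read 338 and 703 after vehicle and 983 and 1442 after GnRH. Set III ran the other way, with 978 and 1003 after vehicle and 178 and 840 after GnRH. Within each set the groups did not overlap, but the direction turned, and the differences were 0.35, 1.26 and -1.30. Over all arrays the log2 difference was 0.10 ± 0.43 (SE; fold 1.07, interval 0.570 to 2.02). GnRH 5 gave the reading of 178, and without it the difference was 0.55. Without vehicle 3 it was -0.17. The limma F test of whether the response differed between sets gave an unadjusted p of 0.0384 and an adjusted p of 0.924.

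Klf6 and Klf10 were the members with both GnRH samples above both vehicle samples in sets I and II. They made up 2 of the 17 tested probe sets, against 4.37% of all tested. In set I alone 4 of 17 showed this, against 16.6%, in set II 2 of 17, against 20.6%, and in set III 2 of 17, against 15.7%. In set I they were Klf6, Klf10 and the less bright Klf15 probe sets, and in set III they were Klf2 and 1 of Klf15. The opposite order, with both GnRH samples below, held for 2 of 17 in set I (15.6% of all tested), both of Klf3. It held for 3 in set II (15.9%), of Klf3, Klf5 and Klf13, and for Klf10 in set III (1 of 17, 13.9%).

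Klf13 (1383013_at) had the most negative difference among the brightest probe sets. KLF13 is a SIN3A-recruiting factor known from lymphocytes, where it acts on the gene for the chemokine CCL5. In set II it read 2257 and 1095 after vehicle and 359 and 369 after GnRH. Sets I and III showed no such gap, with 419 and 794 against 524 and 792, and 380 and 625 against 455 and 667. The log2 differences of the sets were 0.15, -2.06 and 0.17. Over all arrays it was -0.58 ± 0.41 (SE; fold 0.669, interval 0.364 to 1.23; limma adjusted p = 0.981), and -0.27 without vehicle 3. In set II alone its fold was 0.239 (interval 0.0864 to 0.662; limma unadjusted p = 0.0103, adjusted p = 0.837). It was the 1 member probe set of 17 with an unadjusted p under 0.05 there (4.34% of all tested). In set III 0 of 17 had one (2.65%). The test of a different response between sets gave an unadjusted p of 0.0268 and an adjusted p of 0.917. Over all tested probe sets, 0 passed that test after adjustment and 5.36% had an unadjusted p under 0.05. Of the 17 member probe sets 2 had one, those of Klf10 and Klf13.

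**Figure D2:**
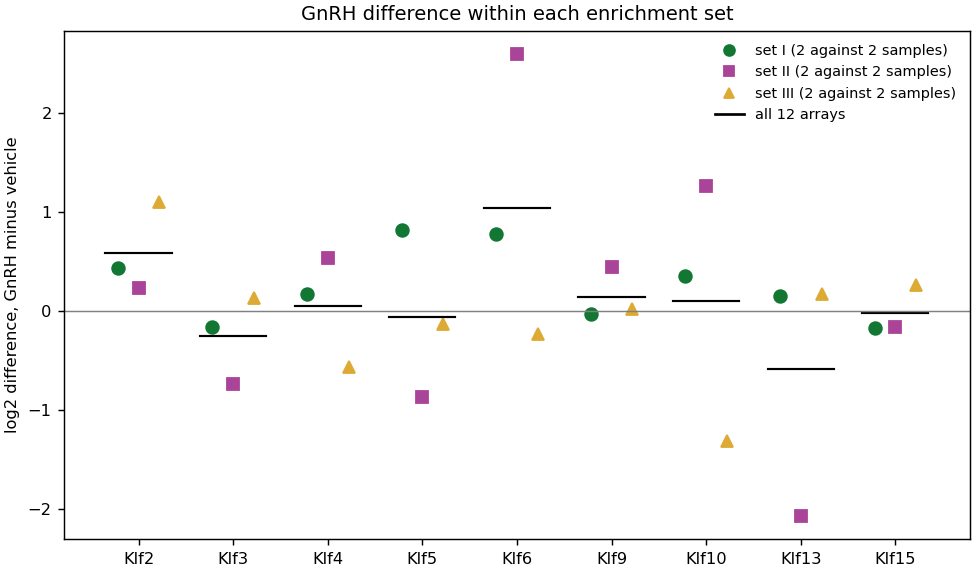
Log2 difference, GnRH minus vehicle, of the brightest tested probe set of each gene within sets I, II and III (2 against 2 samples each), with the value over all 12 arrays as a black line. Klf10 lies at 0.35, 1.26 and -1.30 and Klf13 at 0.15, -2.06 and 0.17, while Klf2 is above 0 in each set.

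Klf2 encodes a factor best known from endothelial cells, where it is induced by flow through MEK5, ERK5 and MEF2, and from resting T cells. Its brightest probe set (1375248_at) ran from 322 to 1744 (median 665) in vehicle and from 573 to 1910 (median 1016) in GnRH samples. The difference was above 0 in each set (0.43, 0.23 and 1.10), and over all arrays it was 0.59 ± 0.35 (SE; fold 1.50, interval 0.893 to 2.53; limma adjusted p = 0.981). In set III vehicle 5, whose spike-in signal was low, read 322, against 922 in vehicle 6 and 1091 and 1296 after GnRH. Without vehicle 5 the difference over all sets was 0.34, and with the spike-in signal as a covariate it was 0.40. The second tested Klf2 probe set differed by 0.26, with -0.13, 0.87 and 0.03 in the sets. The other 3 were too dim to be tested and differed by -0.67, 1.47 and 0.40. Of these, the 1 at 1.47 read 937 in vehicle 3 and at most 26.5 in the other vehicle samples, against 36.4 to 459 after GnRH.

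KLF2 and KLF4 are both abundant in endothelium, so endothelial genes are given beside them. Of 8 listed markers 7 were on the array and 4 passed the filter, of which 3 were higher after GnRH and 0 passed the test. Their summed signal ran from 936 to 2867 in vehicle and from 899 to 1874 in GnRH samples. Tek, an endothelial receptor, differed by 0.24, the junction gene Cldn5 by 0.20, Esam by 0.43 and Kdr by -0.04. Cldn5 differed by -0.11, -0.94 and 1.66 in the sets and read as low as 17.9 in a GnRH sample. Their part in the Klf2 and Klf4 values was not tested.

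Klf4 encodes a zinc finger factor known from epithelial differentiation and from the reprogramming of somatic cells to pluripotency. In set I its signal (1387260_at) was 1410 and 1198 after vehicle and 1562 and 1377 after GnRH. In set II it was 109 and 720 after vehicle and 615 and 293 after GnRH, and in set III it was 1037 and 276, then 263 and 487. The groups overlapped in every set. The difference over all arrays was 0.05 ± 0.46 (SE; fold 1.03, interval 0.528 to 2.02), from -0.33 without vehicle 3 to 0.36 without vehicle 5.

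Klf5 encodes an activator of proliferating epithelium and vascular smooth muscle. Its 3 tested probe sets differed by -0.06, -0.67 and -0.37, and the untested 1 by -0.42. The middle value belongs to the probe set built on the RefSeq transcript (1368363_at), whose median was 353 in vehicle and 185 in GnRH samples. Its difference was below 0 in every set (-0.56, -0.95 and -0.50), which held for 1 of 17 member probe sets and for 11.4% of all tested. Its fold was 0.629 (interval 0.321 to 1.24; limma adjusted p = 0.981). The brightest Klf5 probe set (1394039_at) ran from 162 to 1031 in vehicle and from 49.0 to 913 in GnRH samples, with no common direction in the sets (0.82, -0.87 and -0.13).

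Klf3 encodes a repressor that acts through the CtBP corepressors. Its brightest probe set (1378332_at) had the smallest spread over the arrays of all 24, from 879 to 1777 (median 1330) in vehicle and from 609 to 1889 (median 1121) in GnRH samples. In sets I and II both GnRH samples lay below both vehicle samples, at 1156 and 1085 against 1173 and 1337, and at 1171 and 609 against 1528 and 1322. The gap between the nearest samples of set I was 1156 against 1173. The difference over all arrays was -0.25 ± 0.29 (SE; fold 0.839, interval 0.545 to 1.29). The other tested probe sets differed by -0.03 and 0.14.

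Klf9 encodes a SIN3A-recruiting factor induced by thyroid hormone and glucocorticoids in brain and other tissues. Its brightest probe set (1370209_at) ran from 1239 to 7103 (median 4414) in vehicle and from 2376 to 6102 (median 4246) in GnRH samples. The differences were -0.03, 0.44 and 0.02 in the sets and 0.15 ± 0.31 (SE) over all arrays. The fold of 1.11 had an interval from 0.701 to 1.75, and folds beyond these bounds lie outside it. The other Klf9 probe sets were too dim to be tested, and 1 of them exceeded the 90th percentile of the background controls on 0 of 12 arrays.

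Klf15 encodes a glucocorticoid-responsive factor of metabolism in liver, muscle and heart. The probe set built on its RefSeq transcript (1368249_at) ran from 174 to 442 (median 359) in vehicle and from 113 to 533 (median 312) in GnRH samples, with a difference of -0.02 ± 0.47 (SE). The other Klf15 probe sets (1381396_s_at and 1381395_at), which share 1 expressed sequence tag as their source, differed by 0.68 ± 0.61 and 0.52 ± 0.59. Each of these was 0.14 without vehicle 5. The second of them was above 0 in each set (0.69, 0.43 and 0.44). With the brightest Klf2 probe set, 2 of 17 member probe sets were higher after GnRH in every set, a pattern of 12.6% of all tested.

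**Figure D3:**
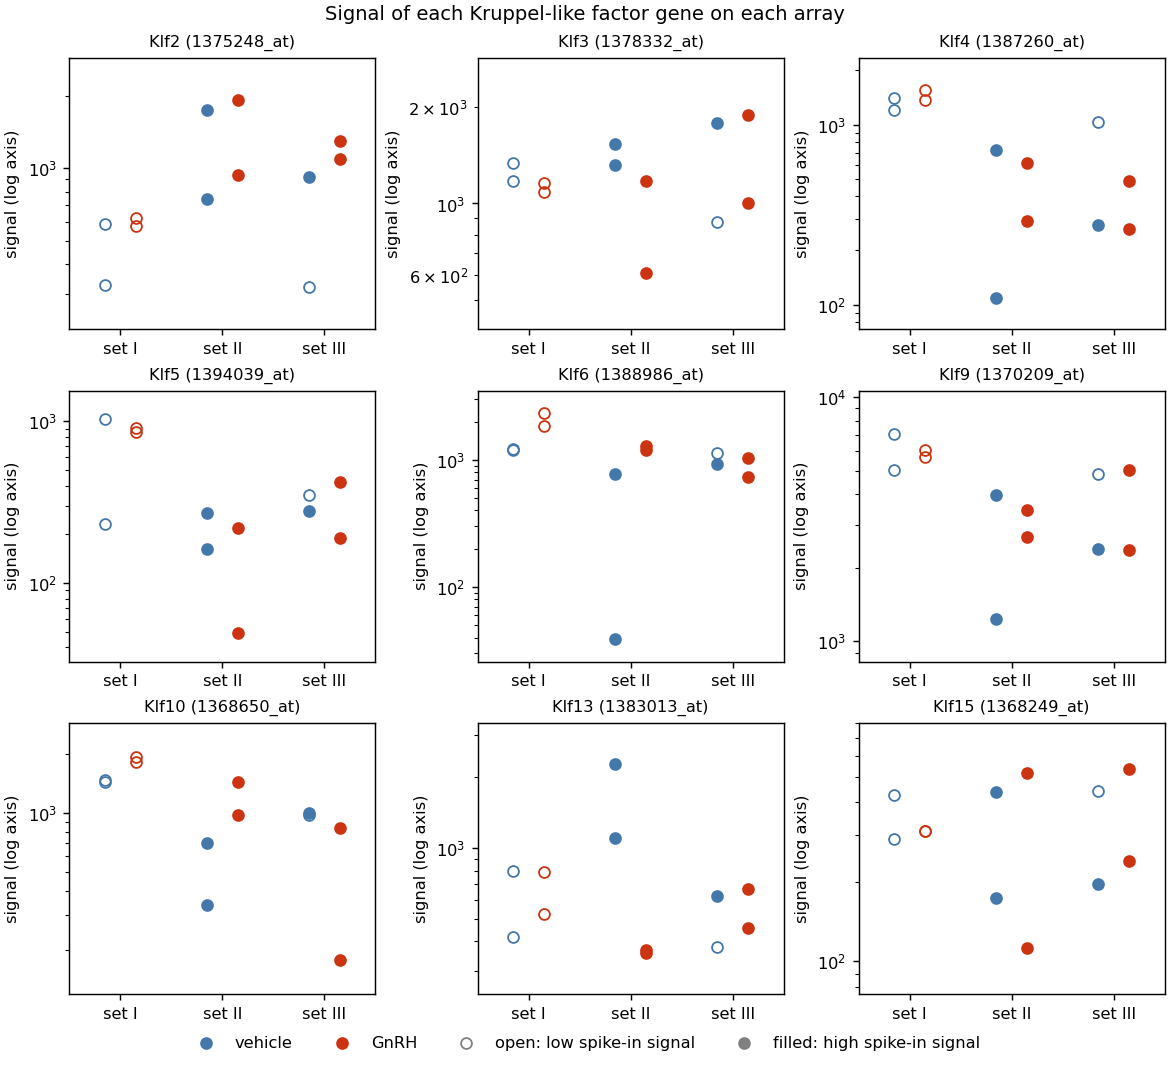
Signal on a log axis (arrays scaled to a trimmed mean of 500) of the brightest tested probe set of each gene, by enrichment set, for vehicle (blue) and GnRH (red) samples, with open points for the 5 arrays of low spike-in signal. Each point is 1 array; the vehicle point at 38.8 in set II is the low Klf6 reading.

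The study's design text names another rule, a fold of 1.50 with 50% concordance. Here pairwise ratios took the place of the change calls of the GCOS software. The fold had to reach 1.50, and no fewer than 50% of the sample pairs had to show it. Applied to the scaled signals plus 16, this form of the rule took up 3 of the 17 tested member probe sets. They were those of Klf2, Klf6 and Klf15 at folds of 1.50, 2.06 and 1.60. In all, 7.62% of tested probe sets met it upward. The share of the 36 sample pairs past the fold was 52.8% for Klf2, 50% for Klf6 and 52.8% for Klf15. The text states the rule for higher genes; mirrored downward, 1 of 17 met it, the Klf5 probe set at a fold of 0.629 and with 61.1% of pairs, against 7.60% of all tested. The Klf2 fold and the Klf6 share of pairs stood at the limit itself. The Klf15 probe set is one of the pair that share a tag. The upward count ran from 1 to 4 and the downward count from 0 to 3 with 1 array left out.

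Enrichment sets and array signal. The second axis of the labels is the preparation, and no member passed the test of a difference between preparations. The median range of the set means was 1.19 on the log2 scale over the 17 probe sets and 1.02 over all tested, while the median size of the GnRH difference was 0.25 and 0.31. Klf4 had the lowest adjusted p of this test, with set means of 10.45, 8.52 and 8.83 as log2(signal + 16). The limma F test of the sets gave an unadjusted p of 0.00699 and an adjusted p of 0.0716. Klf9 had set means of 12.54, 11.35 and 11.75 (adjusted p = 0.114) and Klf10 of 10.71, 9.61 and 9.32 (adjusted p = 0.168). Klf5 had 9.40, 7.39 and 8.30 (adjusted p = 0.103). Klf2 went the other way, with 9.04, 10.29 and 9.69 (adjusted p = 0.151). By limma, 0 of 17 member probe sets passed this test after adjustment, against 6.02% of all tested, and 6 of 17 had an unadjusted p under 0.05, against 27.8%. With vehicle 3 and vehicle 5 left out, an alternative added after the data were seen, 5 of 17 passed (1 each of Klf2, Klf3, Klf4, Klf9 and Klf15), against 20.4% of all tested.

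The sets differ in spike-in signal, and the level of several members moved with it. By its brightest tested probe set, Klf4 was 3.70-fold brighter on the 5 arrays with low spike-in signal than on the other 7. By the same measure Klf5 was 2.79-fold brighter there, Klf6 2.29-fold, Klf10 2.24-fold and Klf9 2.04-fold. Klf2 was 2.47-fold brighter on the other 7. Part of the high arrays gave only background for some of these. Klf5 exceeded the 90th percentile of an array's background controls on 2 of the 7 high arrays, Klf4 on 4, Klf10 on 5 and Klf6 on 6. Each did so on all 5 low arrays, so these folds are imprecise. Less bright tested probe sets of these genes did not all repeat them. Klf5 1385961_at was 3.46-fold brighter on the low arrays, but Klf5 1368363_at was 1.27-fold brighter on the high ones. Klf6 1387060_at was 1.26-fold brighter on the low arrays and Klf2 1376569_at 1.16-fold on the high ones. The brightest probe sets of Klf3, Klf13 and Klf15 stayed within a log2 difference of 0.34. The other tested Klf3 probe sets went opposite ways, at -0.52 (1389479_at) and 0.60 (1393150_at), high minus low arrays. Of the 17, 9 were brighter on the low arrays at all, against 50.4% of all tested. Among the 17, 6 were at least 2-fold brighter with low spike-in signal, against 17.2% of all tested, and 3 were at least 2-fold brighter with high signal, against 13.2%. Set III holds an array of each kind under vehicle, vehicle 5 with low and vehicle 6 with high spike-in signal. On these, in order, Klf4 read 1037 and 276, Klf9 4842 and 2401, and Klf2 322 and 922. The gap was smaller for Klf6 (1122 and 927) and Klf5 (351 and 280), and Klf10 showed none (978 and 1003). The set and the spike-in signal cannot be told apart for sets I and II, which hold 1 kind each.

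The Klf15 probe sets disagreed along this axis. The pair from the shared tag had folds of 6.66 and 2.71 in favour of the high arrays, whereas the RefSeq-based probe set had a fold of 1.26 in favour of the low ones. The first of the pair exceeded that percentile on 2 of 5 low arrays and the second on 3. On the 4 arrays of set I the first of the pair read 34.4, 63.1, 124 and 103, against 328 to 1246 in set II. The geometric mean of the background controls was between 14.8 and 22.4 on the low arrays and between 52.8 and 183 on the high ones. Its part in the Klf15 values was not tested. Likewise the 3 untested Klf2 probe sets were 3.42-, 4.12- and 3.03-fold brighter on the high arrays. They were dim, and exceeded the 90th percentile of the background controls on 3, 5 and 1 of 12 arrays.

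**Figure D4:**
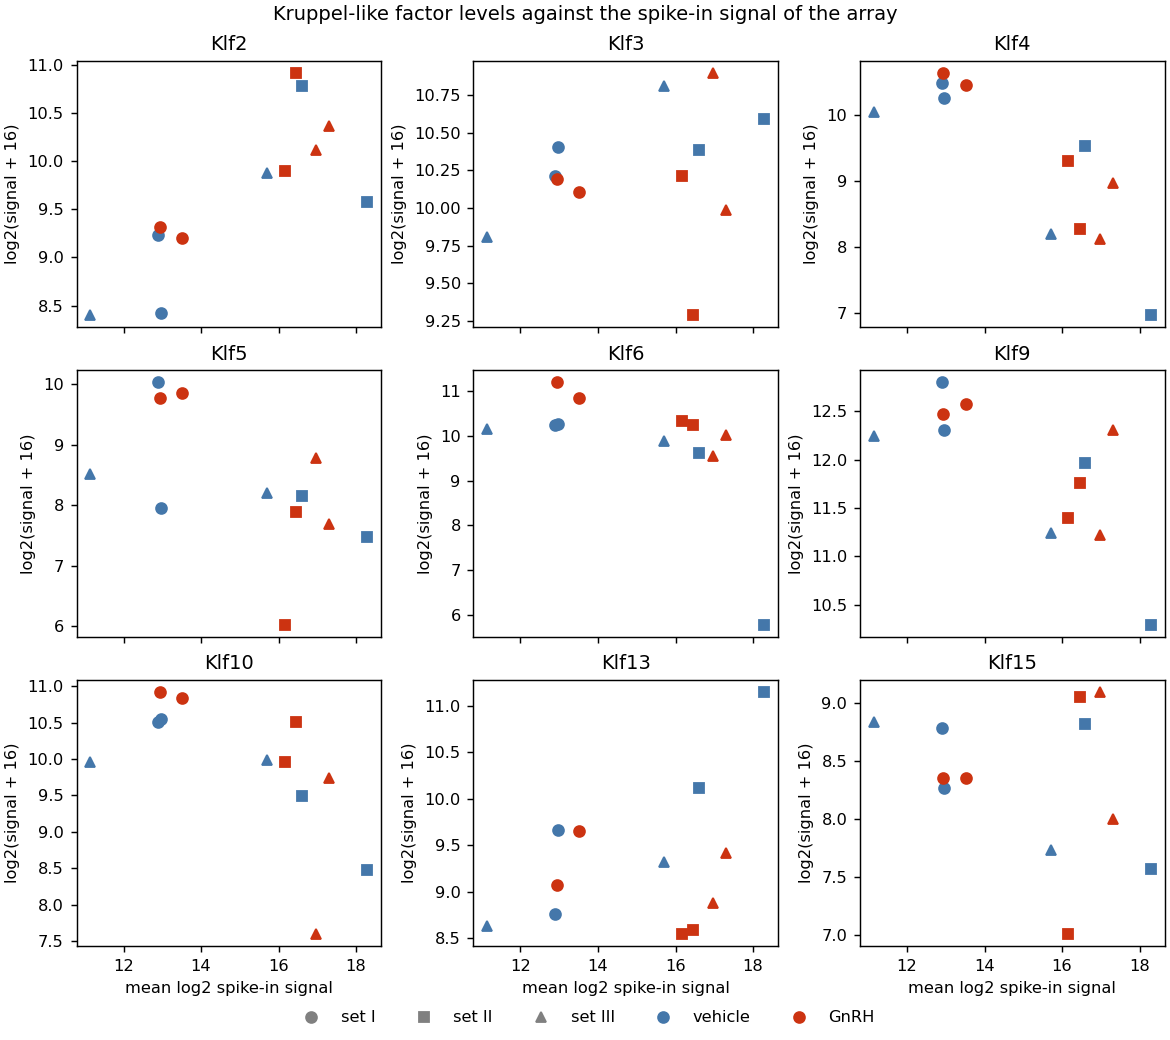
Level of the brightest tested probe set of each gene, as log2(signal + 16), against the mean log2 signal of the spike-in controls on the same array; circles, squares and triangles are sets I, II and III, blue is vehicle and red GnRH. Klf4 is lower on the 7 arrays to the right and Klf2 is higher there. Klf9 is lower there except on GnRH 6 (12.31, against 12.25 on vehicle 5), and vehicle 3 is the array farthest to the right.

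With the spike-in signal as a covariate, the GnRH difference was 1.45 for Klf6 and -0.87 for Klf13 (limma adjusted p = 0.648 for each). It was 0.41 for Klf4, 0.37 for Klf10 and 0.32 for Klf9. For the Klf15 pair it was 0.11 and 0.30, against 0.68 and 0.52 without the covariate. By limma, 0 of 17 were called. The lowest unadjusted limma p of a member there was 0.00834. In that fit 1403 of the 18625 tested probe sets had an unadjusted p under 0.05, against 643 without the covariate.

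Genes around the family. Of 17 other KLF and SP genes listed, 9 were on the array with a symbol of their own and 5 passed the filter. Of these 4 were higher after GnRH and 0 passed the limma test in either direction; the median difference was 0.33 against 0.04 over all 10680 genes tested. Klf16 differed by 0.59 ± 0.39 (SE), Klf12 by 0.84 ± 0.66 and Klf7 by -0.64 ± 0.54, and each had a set with the opposite sign.

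The proteins that KLFs work with were also measured. All 18 listed cofactors and modifiers passed the filter, 12 were higher, 0 passed the test, and the median was 0.08. The histone deacetylase gene Hdac1, a part of the SIN3A complex, differed by 0.66 ± 0.37 (SE), the KLF3 partner gene Ctbp2 by 0.72 ± 0.46 and the ubiquitin ligase gene Siah1 by -0.82 ± 0.61. Upstream, 12 of 15 listed genes of the ERK5, MEF2 and serum response factor inputs were tested, 5 were higher, 0 passed and the median was -0.03. Mef2a, which encodes a MADS-box factor that drives Klf2 in endothelium, differed by 0.58 ± 0.30, with -0.21, 1.19 and 0.75 in the sets. Elk4, a ternary complex factor that binds with serum response factor, differed by -0.39 ± 0.31, and the MAPK kinase gene Map2k1 by 0.55 ± 0.44.

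Among genes of the transforming growth factor beta loop in which Klf10 takes part, 9 of 13 were tested, 5 were higher, 0 passed and the median was 0.08. The signal transducer Smad3 differed by 0.44 ± 0.40 (SE) and the inhibitor Smad7, a gene KLF10 is known to repress, by 0.33 ± 0.38. The receptor gene Tgfbr1 differed by -0.44 ± 0.66. Of 13 glucocorticoid and clock genes, which share hormone control with Klf9 and Klf15, 11 were tested, 5 were higher, 0 passed and the median was -0.01. Cry1 differed by 0.78 ± 0.48, Per2 by 0.75 ± 0.49 and the glucocorticoid receptor gene Nr3c1 by -0.97 ± 0.61. Nr3c1 differed by -2.89 in set III and by 0.01 and -0.03 in sets I and II.

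Genes known as KLF targets in other cells were tested for 8 of 12 listed, with 5 higher, 0 passing and a median of 0.12. The cell cycle inhibitor genes Cdkn1b and Cdkn1a differed by 0.84 ± 0.45 and 0.92 ± 0.55 (SE). Cdkn1a, a target of KLF4 and KLF6, differed by 0.14, 2.25 and 0.36 in the sets, and Cdkn1b by 0.39, 2.84 and -0.71. Ccnd1, which encodes cyclin D1, differed by -0.29 ± 0.30. Klf6, Cdkn1a, Cdkn1b and Mef2a each had their largest difference in set II, the set of vehicle 3. So did genes of the other lists, among them Ctbp2, Per2, Gfap and Egr1, and the share over all tested probe sets was not counted.

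Marker levels of the other cells in the cultures are given because KLF genes are active in many of them. Fibroblast and pericyte markers passed the filter for 4 of 7, with 1 higher, and their summed signal ran from 6772 to 14596 in vehicle and from 5354 to 11201 in GnRH samples. Acta2 differed by -0.52, Dcn by -0.48 and Col1a1 by 0.27. Folliculostellate and stem cell markers passed for 6 of 6, with 3 higher and sums from 5399 to 12261 and from 7988 to 13171. Aldh1a2 differed by -0.80 and Gfap by 0.84. Leukocyte markers passed for 4 of 5, with 1 higher and sums from 656 to 2616 and from 563 to 1561. C1qa differed by -0.99, Fcer1g by -0.49 and Cd74 by 0.51. Other endocrine markers passed for 5 of 5, with 4 higher, Tbx19 by 0.64 and Prl by 0.37. In none of these lists did a gene pass the limma test after adjustment, and 2 had an unadjusted p under 0.05: Anxa1, of the folliculostellate list (log2 difference 0.62), and Pomc, of the endocrine list (-1.77). No marker that passed the filter was listed at 0 in a sample, but some read low. The lowest readings were 17.9 for the endothelial Cldn5, 24.4 for Laptm5, 27.4 for Sox2 and 34.1 for Pomc. A reading above 0 therefore does not show that a marker was detected in every sample. Their part in the KLF values was not tested.

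The genes whose pattern was most like each member's were taken by the Pearson correlation over the 12 arrays after subtraction of each set's mean, as a description. Among 10680 genes the top values are high by selection, and the arrays share vehicle 3 and the spike-in split. Klf6 went with Rbm39 (r = 0.987), which encodes an RNA splicing factor, and Slc35a1 (0.987), the gene of a sialic acid transporter. Klf10 went with Prkcd (0.977), a protein kinase C gene, and C8g (0.960). Klf4 went with Psca (0.974) and the small GTPase gene Rit2 (0.951), and Klf9 with Cyb5r2 (0.968) and the granin gene Scg3 (0.960). Klf2 went with Ttyh1 (0.948) and Prx (0.916), Klf13 with Cdhr2 (0.948) and Pacc1 (0.943), and Klf15 with Myzap (0.953) and Frmd5 (0.948). Klf3 went with Mettl16 (0.961) and LOC102548046 (0.956). Klf5 had the weakest neighbours, Cnksr3 and Necap1 (0.823 each).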

How the data were processed

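The deposited values are linear intensity signals per probe set, 1 array per sample. The authors computed them with GCOS, as named in the submitters' processing notes (release and parameters: not given in the sources used here). RNA was amplified in 2 rounds with T7 polymerase before labelling, per the labels' protocols, a method known to favour the 3' end of transcripts. The trimmed means of the deposited arrays lay between 497 and 499. Per-sample columns of no listed sample numbered 0.

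Signals were rescaled so that every array had a trimmed mean of 500 (2% trimmed at each end of the 31042 non-control probe sets), and 16 was added before log2. Folds are therefore of signal plus 16 and understate changes of dim genes. Probe sets with a mean log2 at or above the 40th percentile were tested (18625). In the annotation 20826 probe sets carry 1 symbol, 436 several and 9780 none; none was named from several. All 24 member probe sets matched RefSeq genes by Entrez identifier. limma 3.58.1 (R 4.3.3) fitted the enrichment set and the agent with an intensity trend, with Benjamini-Hochberg adjustment over all tested probe sets and a threshold of 0.05. F tests covered the sets and the set-by-agent terms. The procedure was tested on simulated data. A gene is represented by its brightest tested probe set, and from each further list the called genes, or else up to 3 with the smallest p, were named. Spike-in signal is the geometric mean of 18 control probe sets, and background that of 27 controls for transcripts not added. The number of arrays limits the precision. Alternatives covered the scaling, pseudocount, filter, model terms, array weights and each array left out. The members and lists were chosen with earlier results of these data known. Promoter sequences are RefSeq's, build GRCr8.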

Additional observations from a re-analysis of the deposited data

Results flagged for a closer look

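For 34 groups of 6 samples (17 tested probe sets, 2 agents), an extreme sample was set against the rest by its gap to the nearest sample as a share of the group's range, on the log2 scale. Chance marks about 1 group in 20. In 2 groups the share exceeded Dixon's 95% critical value. In the vehicle group of Klf6 (brightest probe set), vehicle 3 read 38.8 and the next lowest sample 774, a share of 0.856. In the GnRH group of Klf10, GnRH 5 read 178 and the next lowest 840, a share of 0.644.

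The Klf10 differences had opposite signs between sets: both GnRH samples lay above both vehicle samples in sets I and II and below them in set III. The limma test of that difference gave an adjusted p of 0.924.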

How the results depend on the processing

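The count of member probe sets called for GnRH stayed at 0 under every alternative run. With the replicate number of the titles as a block it was also 0; same-numbered samples did not pair by the criterion that each correlation exceed 0.1. Of the 6 same-number correlations 5 did (0.10 to 0.65) and 1 was -0.22, but same-numbered samples also share a set. Within sets the correlations were -0.03, -0.03 and -0.14, and 2 of 6 GnRH samples correlated best with the vehicle sample of their number. The block lowered the probe sets called over all from 1 to 0, as did quantile normalization, a pseudocount of 1, no set term, no intensity trend and the low spike-in arrays alone, and 11 of the 12 fits with 1 array left out (1 remained called without vehicle 3); array weights gave 2. For the enrichment sets the member count of 0 became 8 with array weights, 2 with a pseudocount of 64 and 5 without vehicle 3 and vehicle 5 together (added after the data were seen), and ran from 0 to 2 with 1 array left out; over all probe sets, 1122 became 4529, 1629 and 3806, and 26 with the spike-in covariate, 503 with no trend and 637 after quantile normalization. The set-by-agent count ran from 0 to 1 with 1 array left out, being Klf6 without vehicle 4, where 815 probe sets were called over all. By the pairwise form of the study's criterion and its mirror, the 3 up and 1 down became 1 and 2 after quantile normalization. They became 0 and 0 with a pseudocount of 64, and 1 and 0 without vehicle 3 and vehicle 5. Single-array omission gave 1 to 4 up and 0 to 3 down. The causes were not tested.

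The sign of small differences turned. After quantile normalization Klf3 1389479_at gave 0.0186 and Klf4 -0.0136. With a pseudocount of 64 Klf5 1394039_at gave 0.00553. With array weights Klf3 1393150_at gave -0.18, Klf5 1394039_at 0.40, Klf6 1387060_at 0.32 and Klf9 -0.0128. With the spike-in covariate Klf3 1389479_at gave 0.0431 and Klf15 1368249_at 0.0691. Without vehicle 3 and vehicle 5, Klf3 1389479_at gave 0.32, Klf3 1393150_at -0.26, Klf4 -0.0345, Klf5 1394039_at 0.0143 and Klf10 -0.0127. On the 5 arrays with low spike-in signal, with no set term (also added), Klf2 1376569_at gave -0.40, Klf3 1378332_at 0.00917, Klf3 1393150_at -0.39, Klf5 1394039_at 0.98, Klf5 1385961_at 0.0728, Klf6 1387060_at 0.63 and Klf13 0.35. With 1 array left out, the ranges that crossed 0 were -0.12 to 0.48 for Klf2 1376569_at, -0.33 to 0.15 and -0.25 to 0.33 for Klf3 1389479_at and 1393150_at, -0.33 to 0.36 for Klf4, -0.43 to 0.27 and -0.91 to 0.0616 for Klf5 1394039_at and 1385961_at, -0.25 to 0.23 for Klf6 1387060_at, -0.10 to 0.32 for Klf9, -0.17 to 0.55 for Klf10 and -0.26 to 0.25 for Klf15 1368249_at. The brightest probe sets of Klf6 (0.37 to 1.33) and Klf2 (0.34 to 0.78) and the Klf15 pair (0.14 to 1.03 and 0.14 to 0.92) stayed above 0, and Klf13 (-0.78 to -0.27), Klf3 1378332_at (-0.43 to -0.0776) and Klf5 1368363_at (-0.89 to -0.44) below it. Of the 24 member probe sets 7 were too dim to be tested.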
